A study of Mus musculus with 35 samples.

Results

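RNA-seq counts of the collagen genes were examined in mouse embryonic fibroblasts (MEFs) in which Nelfb, the gene of the NELFB subunit of the negative elongation factor (NELF) that holds RNA polymerase II at promoters, could be deleted. Members were taken by symbol alone: every gene written as Col, a number, a and a number, which gave 44 of the 24421 genes counted. All cells were immortalized Nelfb flox/- MEFs, with one null and one floxed allele, grown in serum. In the populations, cells carried an empty lentiviral vector (EV) or a vector with wild-type NELFB (WT), MT194, which does not bind NELFA and NELFC, MT486, which does not bind NELFE, or the double mutant MT194&486 (DMT). Each was infected with adenovirus carrying Cre and GFP (Ad-Cre) or GFP alone (Ad-GFP) for 7 days, with 2 replicates per group and 20 libraries in all. The 15 clone libraries came from single clones grown after Ad-Cre, 3 each with pLenti-WT-NELFB (WT), pLenti-MT194 (MT194), pLenti-MT486 (MT486), pBabe-WT-ATG-NELFB (WT(N48)) or pBabe-delta-C60 (Δ-C60, which lacks the carboxyl end and does not bind NELFE). Each clone descends from 1 cell, so a clone group mixes the construct with differences between clones, and a population can hold cells in which Cre did not act.

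Collagens are matrix proteins whose chains wind into helical trimers, and most are secreted, while a few span the cell membrane. Fibrillar collagens (types I, II, III, V, XI, XXIV and XXVII) form the banded fibrils of connective tissue, type IV forms the network of basement membranes, type VI forms beaded microfilaments around cells, and fibril-associated collagens sit on the surface of fibrils. Fibroblasts are known as the main producers of types I, III, V and VI. Where a trimer holds different chains, these are encoded by separate genes, so pairs such as Col1a1 and Col1a2 are needed together for it.

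Reads on genes ranged from 17969149 to 29080007 in the populations and from 18413284 to 27816723 in the clones. Of the 7 fibroblast markers, 6 exceeded 1 CPM (reads on the gene per 1000000 reads, after TMM normalisation) in each of the 35 libraries, among them Vim and Pdgfra, while Thy1 was at or near 0, at most 0.160 CPM. The summed endothelial markers reached at most 1.25 CPM in the populations and 5.03 CPM in the clones, in Δ-C60 clone 3, and the summed epithelial markers at most 1.29 and 2.02 CPM. Other lists were not near 0. Of 5 macrophage markers, 3 exceeded 1 CPM in each population and 1 or 2 in each clone, with median sums of 8.84 and 3.18 CPM. Of 5 osteoblast markers, 2 exceeded 1 CPM in each population and 1 to 3 in each clone, with median sums of 47.1 and 94.7 CPM. Whether such cells were present was not tested.

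Nelfb itself checked the labels. In EV it was at 46.1 and 39.5 CPM with Ad-GFP and at 7.97 and 5.46 CPM with Ad-Cre (log2 fold change -2.67, SE 0.22, adjusted p = 2.53e-05). With Ad-Cre its counts were higher with each construct than in EV, and DMT-Cre held the highest values of the populations, 169 and 208 CPM. Reads of the ectopic cDNA may be counted on the gene, which was not tested. Among the clones, the libraries labelled WT had 10.3, 109 and 15.5 CPM, so clones 1 and 3 had little NELFB message for clones labelled as carrying it, whereas the other 12 clone libraries had 56.3 to 247 CPM. MT486 clones 1 and 2 resembled each other far more than any other pair within a group: a chi-square of their counts per degree of freedom was 5.06 over 12446 genes, against 32.4 to 349 for the other pairs of clones within a group and 34.0 to 197 for the pairs of population replicates. They still differed beyond counting error, but that measure cannot show whether they are separate clones, and this was not tested. They were counted as 2 libraries, so the spread of the MT486 clones may be understated.

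Collagen genes took a median of 1.52% of the reads on genes in the populations (1.02% to 2.15%) and 1.04% in the clones (0.479% to 1.56%). Populations and clones were normalised separately, so these shares are set side by side without a test. The share was higher in the second replicate of 10 of 10 population groups, and replicate numbers there stand for 2 independent experiments. With Ad-Cre it was lower in 8 of 10 pairs of libraries with the same number. In EV the Ad-GFP libraries had 1.51% and 1.94% and the Ad-Cre libraries 1.02% and 1.41%, and in DMT these were 1.53% and 2.15%, then 1.13% and 1.78%. In WT it hardly moved, from 1.44% and 1.80% to 1.45% and 1.78%. MT194 replicate 2 was the other pair in which it was not lower, at 2.00% with Ad-GFP and 2.04% with Ad-Cre. Among the clones, the libraries labelled WT were low, at 0.843%, 0.667% and 0.479%, as was Δ-C60 clone 2 at 0.806%, and the 3 WT(N48) clones, at 1.44%, 1.23% and 1.20%, did not overlap the libraries labelled WT.

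**Figure D1:**
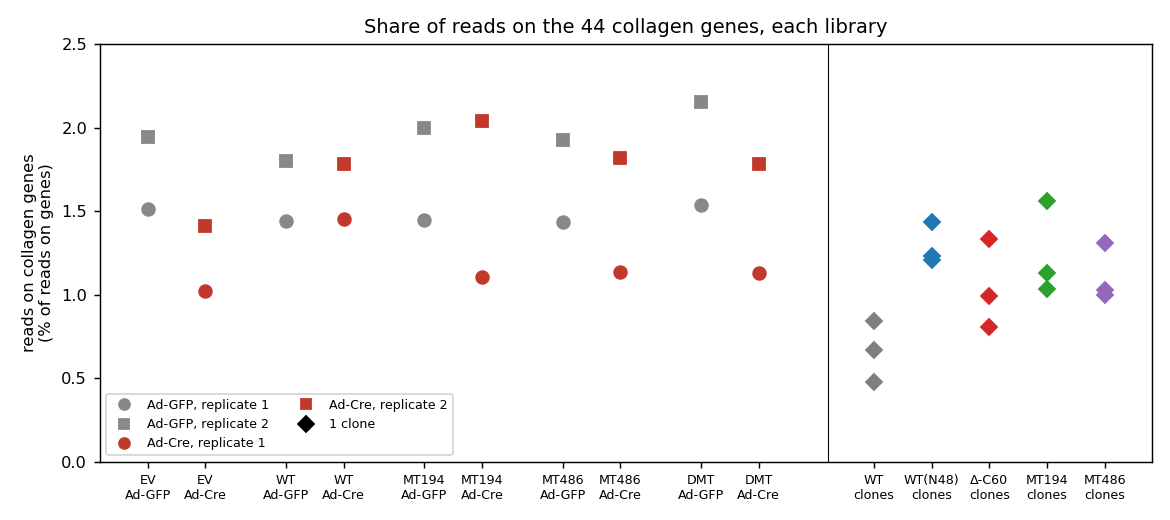
Reads on the 44 collagen genes as a percentage of reads on genes (y axis) in each of the 35 libraries, by group (x axis), with circles and squares for replicates 1 and 2 of the populations and diamonds for clones. The second replicate lies above the first in each population group, EV-Cre replicate 1 is the lowest population library at 1.02%, and the 4 lowest clones are the 3 libraries labelled WT and Δ-C60 clone 2.

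The difference between the 2 experiments ran through most members. Of the 34 collagen genes with enough reads to be tested in the populations, 22 were higher in the second replicate of all 10 groups and 0 were lower in all 10, while 22.8% of all tested genes were higher and 23.6% lower in all 10. Reads on no annotated gene were also more frequent in the second replicate of 9 of 10 groups, with 11.7% to 15.8% of a library in the first replicates and 15.2% to 21.3% in the second. Their part in the collagen levels was not tested. MT194-Cre replicate 2 stood apart within the second experiment, with the highest CPM of all populations for Col1a2 (5935), Col3a1 (1418) and Col4a1 (364).

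Levels compared between genes are given as CPM per kb of transcript. In the populations the order began with Col1a1 at 1001, Col1a2 at 645, Col6a1 at 295, Col5a2 at 240, Col3a1 at 137, Col6a2 at 127 and Col5a1 at 105 (means of 20 libraries). Thus the chains of types I, VI, V and III led, and Col1a1, the major chain of type I, took 36.6% of all collagen reads. By CPM the first 5 were Col1a1, Col1a2, Col5a2, Col6a1 and Col5a1 in the populations, and Col1a1, Col1a2, Col5a2, Col6a1 and Col3a1 in the clones. Fibrillar collagens held a median of 79.4% of the collagen reads in the populations and 71.8% in the clones, type VI 12.7% and 17.4%, type IV 2.40% and 3.72%, and fibril-associated collagens 2.69% and 2.76%. The next level per kb was that of Col8a1 at 40.4, followed by Col12a1 at 30.6, Col16a1 at 29.0, Col6a3 at 24.4 and Col4a1 at 23.0, and the ranges of these neighbours overlapped.

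Silent members were found in several classes. Col13a1, a transmembrane collagen, had no read in any of the 35 libraries, and Col22a1, a collagen of tissue junctions, had no read in the populations and 4 reads in the clones. A library with no read on a gene allows a level of up to 3 reads, for counting error only. Col4a4, Col4a6, Col6a6, Col9a1, Col9a2, Col19a1, Col25a1 and Col26a1 also had too few reads to be tested in the populations, and in the clones Col6a4 and Col6a5 as well. Of the type IX chains, which decorate cartilage fibrils, Col9a3 alone had enough reads, at 0.642 to 2.07 CPM in the populations and 0.166 to 2.59 CPM in the clones.

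**Figure D2:**
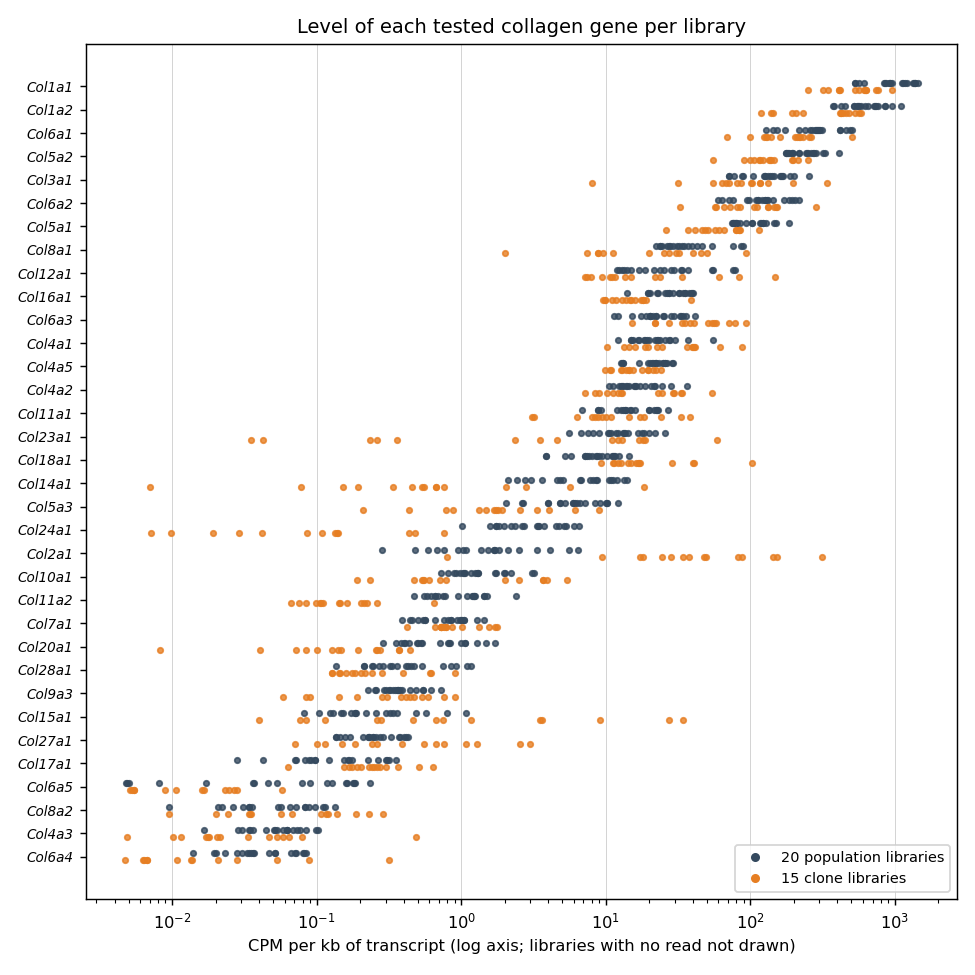
CPM per kb of transcript on a log axis (x) for each tested collagen gene (y), with one point per library, dark for the 20 populations and orange for the 15 clones. Col1a1 and Col1a2 lead in the populations, and Col2a1, Col15a1, Col14a1 and Col23a1 spread far more widely in the clones.

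Ad-Cre was compared with Ad-GFP within each construct. Ad-Cre deletes the floxed Nelfb allele and also brings in Cre itself, and within a construct these cannot be told apart. The fit used one mean per group, and passing meant an adjusted p under 0.05 together with an absolute log2 fold change over 0.5. In EV 2 of 34 collagen genes passed, Col14a1 and Col6a5, both lower, beside 11.8% of all genes tested. Because the 2 experiments shifted most members, the fit was also made with the replicate number as a block. It called 25 of 34 in EV (9 higher, 16 lower), or 73.5%, beside 25.4% of all genes. The median log2 fold change of the 34 members was -0.27 without the block and -0.29 with it, and 0.00 over all genes in both. Below, a member is said to have risen or fallen where it passed in the fit with the block, and those that also passed without it are named. In the 2 EV groups 23 of 34 members did not overlap, as did 48.4% of all genes. Since these are bulk libraries, fewer cells that make a collagen and less of its RNA per cell cannot be told apart.

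Type I and III fibrils had lower message in EV with Ad-Cre. Col1a1 was at 5648 and 8038 CPM with Ad-GFP and at 3154 and 4951 CPM with Ad-Cre, and the groups did not overlap. It fell with a log2 fold change of -0.77 (SE 0.20, adjusted p = 0.00471, against 0.411 without the block). Its partner chain Col1a2 was at 2976 and 4103 CPM and then at 1988 and 2902 CPM (-0.54, SE 0.19, adjusted p = 0.0318). Col3a1, the chain of type III, was at 763 and 905 CPM and then at 394 and 493 CPM (-0.92, SE 0.27, adjusted p = 0.0166). Of the 11 fibrillar genes 8 fell, 1 rose, and Col5a1 and Col5a2, the main chains of type V, did not pass, with log2 fold changes of 0.05 and -0.10 without the block.

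Minor fibrillar chains also changed in EV. Col11a1, a type XI chain that helps to nucleate fibrils, was at 113 and 208 CPM in EV-GFP and at 52.1 and 71.3 CPM in EV-Cre. Both Ad-Cre libraries lay below both Ad-GFP libraries, and the change was -1.33 (SE 0.10, adjusted p = 1.85e-08), against an adjusted p of 0.0594 without the block. In WT the same gene was at 104 and 152 CPM with Ad-GFP and at 104 and 171 CPM with Ad-Cre. The WT values overlapped, and the change in WT exceeded that in EV by 1.42 (SE 0.13, adjusted p = 4.48e-06 with the block). Col5a3, a chain of minor type V forms, went from 36.4 and 62.2 CPM to 16.1 and 29.7 CPM in EV, and it was lower with Ad-Cre in 10 of 10 pairs. Col2a1, the cartilage fibril chain, Col24a1 and Col27a1 also fell, by 1.43, 1.09 and 0.95 on the log2 scale, whereas Col11a2, another type XI chain, rose from 4.52 and 6.63 CPM to 7.34 and 14.4 CPM (0.93, SE 0.21, adjusted p = 0.00179).

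Of the type VI chains, Col6a1, Col6a2, Col6a3 and Col6a5 fell in EV, while Col6a4, at 0.626 CPM or less, did not pass and Col6a6 was too low to be tested. Col6a1 was at 1228 and 1998 CPM with Ad-GFP in EV and at 624 and 972 CPM with Ad-Cre (-1.01, SE 0.15, adjusted p = 3.22e-05). Col6a2 went from 561 and 943 CPM to 295 and 441 CPM (-1.01, SE 0.14), and Col6a3 from 224 and 364 CPM to 122 and 204 CPM (-0.85, SE 0.11). None of the 3 passed without the block, with adjusted p-values of 0.232, 0.223 and 0.269, but each was lower with Ad-Cre in 10 of 10 pairs of libraries. Genes lower in all 10 pairs made up 14.9% of those tested, and the collagens among them were 9 of 34: Col4a5, Col5a3, Col6a1, Col6a2, Col6a3, Col6a5, Col14a1, Col15a1 and Col23a1. The ratio of Col6a1 to Col6a2 ranged from 2.00 to 2.52 per kb over the 20 populations, while Col6a1 itself ranged 3.91-fold, and the ratio was lower with Ad-Cre in 8 of 10 pairs.

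Both genes lie on the minus strand of chromosome 10, Col6a1 at chr10:76708792-76726168 and Col6a2 at chr10:76595762-76623630 (GRCm38, which is mm10). Their RefSeq promoter windows, of 250 bases before and 50 after the start (GRCm38.p6, minus strand, chr10:76725995-76726294 and chr10:76623581-76623880), are shown because their messages moved together. Capitals mark TGANTCA, the AP-1 motif, in Col6a1, and GGGCGG, the GC box, read on the other strand, in Col6a2. Col6a2 has another RefSeq window, chr10:76623355-76623654, which holds GGGCGG 3 times on the other strand. The one printed is at the annotated start of the gene.
Col6a1: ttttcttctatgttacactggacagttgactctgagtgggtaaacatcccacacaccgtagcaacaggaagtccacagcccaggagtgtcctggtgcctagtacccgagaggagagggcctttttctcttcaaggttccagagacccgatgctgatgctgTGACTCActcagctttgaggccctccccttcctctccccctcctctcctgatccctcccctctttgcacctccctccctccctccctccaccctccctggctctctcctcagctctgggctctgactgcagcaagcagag
Col6a2: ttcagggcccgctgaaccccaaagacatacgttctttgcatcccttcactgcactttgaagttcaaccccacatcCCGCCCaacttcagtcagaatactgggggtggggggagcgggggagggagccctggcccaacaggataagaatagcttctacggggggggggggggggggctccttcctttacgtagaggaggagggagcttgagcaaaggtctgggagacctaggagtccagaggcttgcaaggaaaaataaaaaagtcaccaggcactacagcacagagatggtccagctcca
Windows were found for 35 of the 44 collagen genes, 38 windows in all. TGANTCA, counted on both strands, was in 1 of the 38, or 2.63%, and in 7.81% of 32817 promoter windows. GGGCGG was in 60.5% of the collagen windows and in 35.6% of all, CCAAT in 34.2% and 37.4%, and TATAAA in 13.2% and 13.6%. These shares describe letters and not sites of binding.

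Col6a5, a further type VI chain, had few reads. It was named after its values were seen, because its mean lay below 1 CPM. In EV-GFP it had 35 and 34 reads and in EV-Cre 1 and 1. MT486 gave 17 and 13 reads with Ad-GFP and 0 and 1 with Ad-Cre, MT194 35 and 24 against 2 and 7, DMT 29 and 60 against 9 and 4, and WT 21 and 33 against 12 and 9. Lower counts with Ad-Cre were thus seen in each of the 10 pairs, and the gene passed without the block in EV, MT194, MT486 and DMT (adjusted p = 0.00037, 0.00758, 0.00737 and 0.00233). Fitted with the compared groups alone it did not pass in MT194 (adjusted p = 0.236) or MT486 (0.160), where that fit called 0 and 5 of all genes. The gene also lost the call without MT194-Cre replicate 1, MT194-GFP replicate 1 or MT486-Cre replicate 1, in fits that leave 1 library in a group. In WT its adjusted p was 0.0527 with the block. With 0 to 2 reads on one side the size of the change in EV and MT486 is poorly known.

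Fibril-associated collagens went both ways. Col12a1, which bridges fibrils to the surrounding matrix, was at 150 and 248 CPM in EV-GFP and at 388 and 906 CPM in EV-Cre, without overlap. It rose by 1.64 on the log2 scale (SE 0.17, adjusted p = 2.24e-06, against 0.0570 without the block). In DMT it went from 154 and 213 CPM to 425 and 874 CPM and passed in both fits (1.82, SE 0.54, adjusted p = 0.0491 without the block). Col14a1, its close relative on the fibril surface, moved the opposite way, from 49.4 and 63.2 CPM in EV-GFP to 12.0 and 13.8 CPM in EV-Cre (-2.12, SE 0.40, adjusted p = 0.00427 without the block). In DMT it went from 48.3 and 80.0 CPM to 17.1 and 28.9 CPM (-1.48, SE 0.39, adjusted p = 0.0287 without the block). Col20a1 and Col9a3 rose in EV, Col20a1 from 2.02 and 2.54 CPM to 4.14 and 8.62 CPM, and Col16a1 did not pass in any construct. As a share of collagen reads this class reached 7.30% in EV-Cre replicate 2, its highest value in the populations, against a median of 2.69%.

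**Figure D3:**
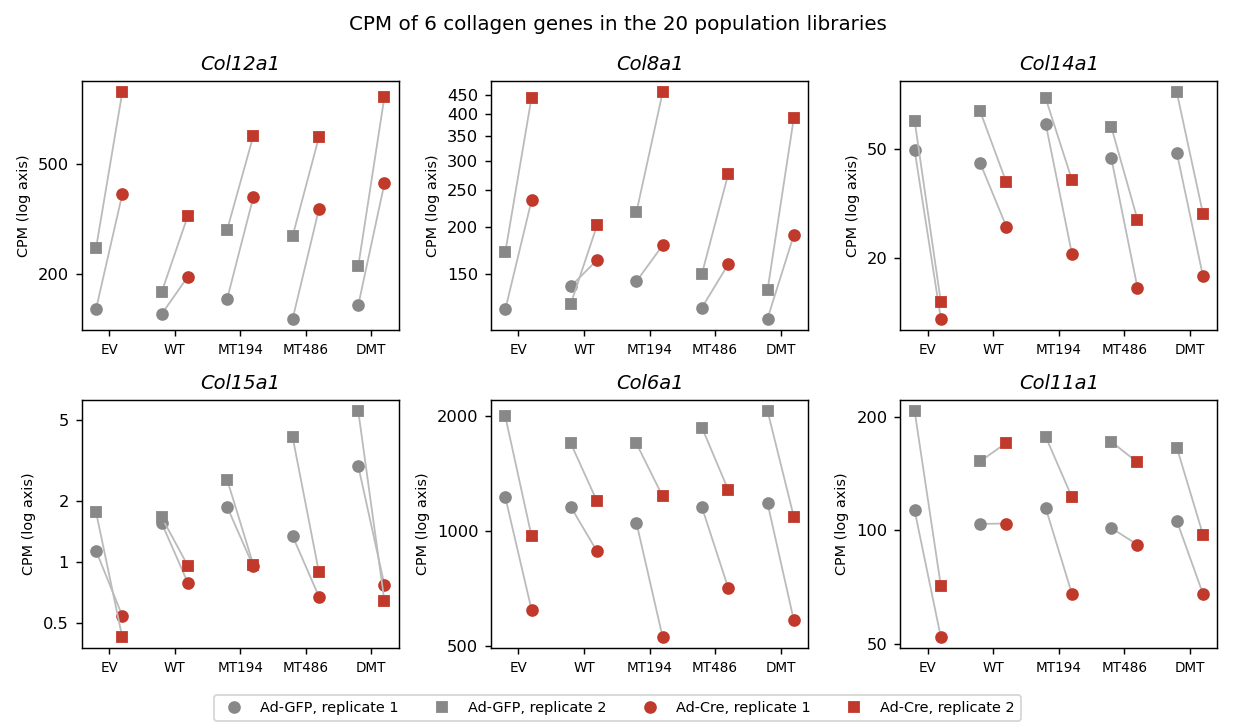
CPM on log axes (y) of Col12a1, Col8a1, Col14a1, Col15a1, Col6a1 and Col11a1 in the 20 populations by construct (x), grey for Ad-GFP and red for Ad-Cre, circles for replicate 1 and squares for replicate 2. Col12a1 lies higher and Col14a1 lower with Ad-Cre in each pair, and Col11a1 separates in EV, at 52.1 and 71.3 CPM against 113 and 208, but not in WT.

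Of the 3 short-chain collagens, which form hexagonal networks, 2 rose in EV and in DMT. Col8a1 was at 120 and 171 CPM in EV-GFP and at 235 and 442 CPM in EV-Cre, and in DMT at 114 and 135 CPM and then 190 and 389 CPM. Neither pair of groups overlapped, and the changes were 1.18 (SE 0.30, adjusted p = 0.00884) and 1.14 (SE 0.30, adjusted p = 0.0110), with 0.112 and 0.123 without the block. Its partner chain Col8a2 stayed at 0.577 CPM or less in all populations. Col10a1 rose in EV and DMT, in EV from 3.29 and 6.19 CPM to 5.36 and 9.93 CPM, and it overlaps Nt5dc1 on the opposite strand, as Col9a3 does Tcfl5. The RefSeq window of Col8a1 (GRCm38.p6, minus strand, chr16:57754688-57754987) is shown as that of a member that rose in both, with GGGCGG on the other strand in capitals.
Col8a1: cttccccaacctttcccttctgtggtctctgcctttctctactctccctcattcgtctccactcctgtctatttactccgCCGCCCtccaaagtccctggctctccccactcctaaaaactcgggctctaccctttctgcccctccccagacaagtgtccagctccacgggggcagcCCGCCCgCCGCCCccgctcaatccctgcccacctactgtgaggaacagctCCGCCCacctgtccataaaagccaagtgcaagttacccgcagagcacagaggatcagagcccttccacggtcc

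Type IV chains differed among themselves. Col4a1 was higher with Ad-Cre in 10 of 10 pairs, yet its change passed only in MT194 (0.69, SE 0.18, adjusted p = 0.0131) and MT486 (0.57, SE 0.18, adjusted p = 0.0400), and its difference from the change in EV did not pass. In EV it was at 131 and 169 CPM with Ad-GFP and at 145 and 244 CPM with Ad-Cre, and the groups overlapped. Without MT194-Cre replicate 2 it no longer passed in MT194 (0.29, SE 0.14, adjusted p = 0.138), in a fit that leaves 1 Ad-Cre library there and takes its spread from the other groups. Col4a2, the other chain of the same trimer, was higher with Ad-Cre in 6 of 10 pairs and did not pass in any construct. Col4a5 fell in EV (-0.52, SE 0.14) and DMT (-0.56, SE 0.14), and Col4a3 rose in DMT (1.28, SE 0.42, adjusted p = 0.0208), where its highest value was 0.877 CPM. The 5 collagen genes higher with Ad-Cre in all 10 pairs were Col4a1, Col5a1, Col8a1, Col12a1 and Col17a1, beside 13.5% of all genes.

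Col4a1 and Col4a2 varied less against each other than each did across libraries. Col4a1 to Col4a2 per kb ranged from 1.09 to 1.75 in the populations, where the genes themselves ranged 4.56-fold and 3.48-fold, and from 1.17 to 2.10 in the clones, where they ranged 8.51-fold and 7.62-fold. With Ad-Cre the ratio was higher in 9 of 10 pairs, at 1.22 to 1.75 against 1.09 to 1.28 with Ad-GFP. The genes stand head to head on chromosome 8, Col4a1 on the minus strand at chr8:11198423-11312826 and Col4a2 on the plus strand at chr8:11312805-11449287, so their first exons overlap on opposite strands. Whether reads were counted by strand is not given in the sources used here, and reads of the overlap cannot then be assigned to either gene. The 2 windows of the same build, chr8:11312777-11313076 (minus strand) and chr8:11312555-11312854 (plus strand), share bases 11312777 to 11312854. They are shown because the 2 genes share this promoter region, with CCAAT and GGGCGG on either strand in capitals.
Col4a1: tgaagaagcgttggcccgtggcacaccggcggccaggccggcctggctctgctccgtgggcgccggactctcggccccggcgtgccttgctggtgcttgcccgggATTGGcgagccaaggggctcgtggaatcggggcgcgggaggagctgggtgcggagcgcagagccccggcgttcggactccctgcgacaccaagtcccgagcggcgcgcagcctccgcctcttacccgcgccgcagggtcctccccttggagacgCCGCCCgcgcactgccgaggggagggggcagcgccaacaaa
Col4a2: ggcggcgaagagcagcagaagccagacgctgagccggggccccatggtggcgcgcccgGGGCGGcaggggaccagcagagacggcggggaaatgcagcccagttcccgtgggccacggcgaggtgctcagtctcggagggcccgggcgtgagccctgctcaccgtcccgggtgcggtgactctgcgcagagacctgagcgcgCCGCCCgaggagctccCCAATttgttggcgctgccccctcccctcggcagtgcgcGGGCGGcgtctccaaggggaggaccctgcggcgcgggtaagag
Col1a1 to Col1a2 ranged from 1.24 to 1.87 per kb in the populations, and it was lower with Ad-Cre in 10 of 10 pairs, at 1.24 to 1.63 against 1.47 to 1.87 with Ad-GFP. Col5a1 to Col5a2 ranged from 0.358 to 0.491 and was lower with Ad-Cre in 4 of 10. In the clones the same ratios ranged from 0.814 to 2.95 and from 0.278 to 0.732. Col6a1 to Col6a3 was at 8.18 to 15.5 in the populations, lower with Ad-Cre in 10 of 10 pairs, and at 1.62 to 9.10 in the clones. These ratios were not tested.

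Of the remaining classes, the multiplexin Col15a1, a basement membrane zone collagen, fell most in DMT, from 2.96 and 5.54 CPM to 0.764 and 0.638 CPM (-2.60, SE 0.47, adjusted p = 0.00362 without the block). It also fell in EV, MT194 and MT486, though in MT194 not without MT194-Cre replicate 2 (-0.90, adjusted p = 0.159). Col18a1, whose carboxyl end yields endostatin, went from 40.9 and 57.5 CPM to 19.4 and 29.0 CPM in DMT (-1.03, SE 0.13, adjusted p = 1.05e-05), while in EV it was at 37.7 and 56.2 CPM and then at 38.6 and 51.2 CPM. The DMT groups did not overlap and the EV groups did, but the difference of these effects did not pass in edgeR, while DESeq2 with the block called it. Among transmembrane collagens Col23a1 fell in EV, MT194, MT486 and DMT, in EV from 59.2 and 112 CPM to 38.2 and 46.1 CPM, and Col17a1, a hemidesmosome protein, rose in EV, MT194 and DMT at levels of at most 1.97 CPM, in MT194 again not without that library (1.41, adjusted p = 0.107). Col7a1, the chain of anchoring fibrils, and Col28a1 rose in EV and DMT, Col28a1 from 1.52 and 1.37 CPM to 3.60 and 4.66 CPM in EV.

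**Figure D4:**
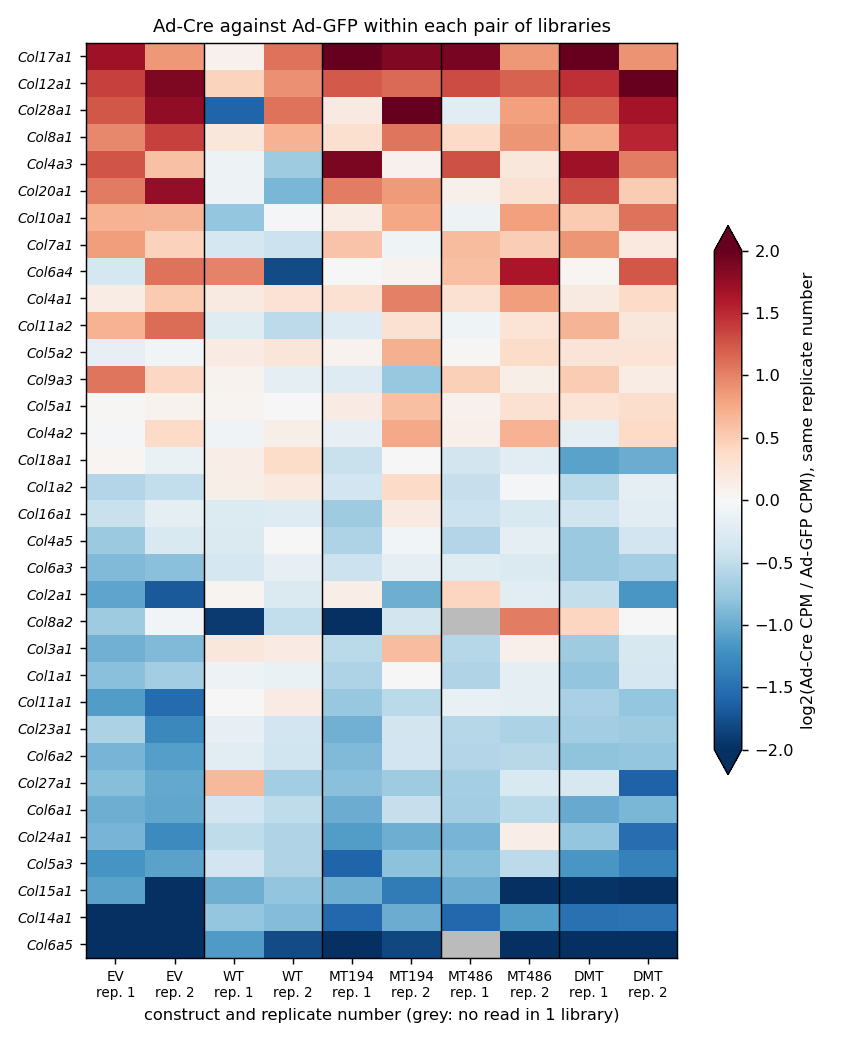
Log2 ratio of Ad-Cre to Ad-GFP CPM (colour, red higher and blue lower with Ad-Cre, clipped at 2 in either direction) for the 34 tested collagen genes (rows, ordered by their median) in each pair of libraries with the same construct and replicate number (columns). Rows from Col15a1 to Col6a5 are blue in each drawn pair, Col12a1 and Col8a1 are red throughout, and the 2 WT columns are paler than those of EV and DMT.

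Across constructs, WT had the fewest calls. Without the block 0 of 34 passed in WT beside 0.0217% of all genes (1 at an unadjusted p under 0.05, and 0 by DESeq2). One passed in MT194 and one in MT486, Col6a5 in both, beside 4.22% and 2.42%. In DMT 4 passed, Col12a1 higher and Col14a1, Col15a1 and Col6a5 lower, beside 9.92%. Fitted with the compared groups alone 2 passed in DMT, so these 4 calls did not all hold there. That fit called 489 of all genes in DMT, against 1369 in the main fit. With the block 2 passed in WT beside 3.09% of all genes, 13 in MT194 (4 higher, 9 lower) beside 14.5%, 9 in MT486 (2 higher, 7 lower) beside 12.1% and 23 in DMT (8 higher, 15 lower) beside 23.1%. In WT the share of members called, 5.88%, thus lay near that of all genes, whereas in DMT it was 67.6%. The median log2 fold change of the members without the block was -0.21 in WT, -0.14 in MT194, -0.08 in MT486 and -0.30 in DMT, and it lay between -0.01 and 0.01 over all genes.

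Of the 25 members called in EV with the block, 21 were called in DMT in the same direction, 12 in MT194 and 8 in MT486, or 84%, 48% and 32% of the 25. These make 91.3% of the members called in DMT, 92.3% in MT194 and 88.9% in MT486. Of all 3502 genes called in EV, 68.4% were called in the same direction in DMT, 44.7% in MT194 and 36.7% in MT486, or 75%, 78.2% and 76.8% of the genes called in those constructs. The members' shares thus lay near the background in MT194 and MT486 as a part of the EV calls, and none of these differences was tested. The 2 called in WT, Col12a1 (0.66, SE 0.17, adjusted p = 0.0308) and Col14a1 (-0.82, SE 0.14, adjusted p = 0.00385), were called in all 5 constructs. Col5a3, Col6a1, Col6a2, Col6a5, Col15a1 and Col23a1 were called in the other 4, Col15a1 in MT194 only with MT194-Cre replicate 2. In no construct were 6 of the 34 called, or 17.6%, beside 65.6% of all genes: Col4a2, Col5a1, Col5a2, Col6a4, Col8a2 and Col16a1. In WT the type VI chains had the same sign, with log2 fold changes of -0.44 for Col6a1, -0.30 for Col6a2 and -0.26 for Col6a3, and none passed.

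Whether the Cre effect differed from that in EV was tested as an interaction. Without the block none of the 34 passed for WT, MT194, MT486 or DMT, beside 0.681% of all genes for WT and 0.00724% for each of the others. At an unadjusted p under 0.05 there were 4, 2, 0 and 1, and DESeq2 called 0 in each. The share of all genes at an unadjusted p under 0.05 is not given for any comparison. Whether such counts of members exceed it cannot be told here. With the block 9 passed for WT (beside 13.4% of all genes), 1 for MT194 (0.978%), 3 for MT486 (2.68%) and 0 for DMT (0.00724%, 4 at an unadjusted p under 0.05, and 2 by DESeq2 with the block). For WT the change of Col14a1 was smaller by 1.30 (SE 0.20, adjusted p = 0.000476), and the rise of Col12a1 was less by 0.98, a difference of -0.98 (SE 0.23, adjusted p = 0.0110). Col11a1 differed in WT, MT194 and MT486, by 1.42, 0.69 and 1.17. These comparisons share the EV libraries, so a value particular to EV enters each of them, and without MT194-Cre replicate 2, which leaves 1 Ad-Cre library, the MT194 difference was 0.59 (SE 0.14, adjusted p = 0.0634) and no longer passed. The window of Col11a1 (GRCm38.p6, plus strand, chr3:114030290-114030589) is shown since this gene differed from EV in 3 constructs, with GGGCGG and CCAAT on either strand in capitals.
Col11a1: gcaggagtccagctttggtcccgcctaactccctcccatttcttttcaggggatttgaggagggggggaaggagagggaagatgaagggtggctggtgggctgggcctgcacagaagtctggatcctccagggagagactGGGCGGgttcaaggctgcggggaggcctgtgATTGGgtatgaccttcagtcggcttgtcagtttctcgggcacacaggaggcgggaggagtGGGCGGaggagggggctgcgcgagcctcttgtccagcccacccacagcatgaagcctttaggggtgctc

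Genes that make, trim and read collagen were followed through 47 listed genes, of which 45 were tested in the populations. Without the block 3 passed in EV, or 6.67%, beside 11.8% of all genes: Tll1, a procollagen C-proteinase of the tolloid family, rose from 3.15 and 4.10 CPM to 9.42 and 13.2 CPM (1.64, SE 0.37, adjusted p = 0.0110). Itga2, a collagen-binding integrin chain, went from 3.44 and 4.78 CPM to 1.89 and 1.70 CPM, and Adamts3, a procollagen N-proteinase, changed by -2.13 (SE 0.63, adjusted p = 0.0430). Tll1 also passed in MT194 (2.23) and MT486 (1.58), and Adamts14, another N-proteinase, and Itga2 passed in DMT (-1.84 and -1.09). These were 2.22% of the list in MT194 and in MT486 and 4.44% in DMT, below the 4.22%, 2.42% and 9.92% of all genes. With the block 17 passed in EV (11 higher, 6 lower), 1 in WT, 12 in MT194 (11 higher, 1 lower), 7 in MT486 (5 higher, 2 lower) and 20 in DMT (14 higher, 6 lower), or 37.8%, 2.22%, 26.7%, 15.6% and 44.4% of the 45, beside 25.4%, 3.09%, 14.5%, 12.1% and 23.1% of all genes in that fit.

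Several enzymes that modify chains before or after secretion rose in EV. Lox, which cross-links secreted chains, was at 1665 and 2386 CPM in EV-GFP and at 3202 and 5327 CPM in EV-Cre (1.05, SE 0.15, adjusted p = 3.89e-05 with the block). Plod1, a lysyl hydroxylase, went from 148 and 213 CPM to 357 and 688 CPM (1.48, SE 0.20), and P4ha2, a prolyl 4-hydroxylase subunit, from 144 and 230 CPM to 292 and 603 CPM (1.21, SE 0.21). None of these groups overlapped. Adamts14 fell from 28.9 and 45.3 CPM to 13.2 and 18.5 CPM (-1.21, SE 0.12), and it fell in each of the 5 constructs, with -0.59 (SE 0.12, adjusted p = 0.00968) in WT. Serpinh1, the collagen chaperone, was at 2515 and 4159 CPM in EV-GFP and 2118 and 3838 CPM in EV-Cre and did not pass.

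Markers of smooth muscle moved with Ad-Cre in each construct. Their summed level was 34.2 to 71.6 CPM in the 10 Ad-GFP libraries and 146 to 394 CPM in the 10 Ad-Cre libraries. Acta2, Cnn1 and Tagln, 3 of 5 listed, made up this rise, and Acta2 went from 17.8 and 15.9 CPM to 134 and 123 CPM in EV (2.93, SE 0.21) and from 19.9 and 17.0 CPM to 62.0 and 64.2 CPM in WT (1.77, SE 0.21). The defining markers Myh11 and Des stayed at 0.488 CPM or less in all populations. Pdgfra, a fibroblast marker, fell in EV from 1707 and 2533 CPM to 802 and 1064 CPM (-1.17, SE 0.13). The part of these genes in the collagen changes was not tested.

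The clones were compared with WT(N48) clones, which carry the same vector as Δ-C60, and MT486 with MT194. The MT194, MT486 and WT-labelled clones carry pLenti and not pBabe, so their comparisons with WT(N48) mix construct and vector. Col8a1 was the one collagen called, lower in MT194 clones, at 10.2, 45.0 and 37.8 CPM against 233, 204 and 56.9 CPM (-2.41, SE 0.64, adjusted p = 0.0473), beside 5.82% of all genes. The groups did not overlap, but the nearest clones were 45.0 and 56.9 CPM. In the same order of clones the summed smooth muscle markers were at 16.2, 24.2 and 110 CPM against 2172, 1065 and 57.1 CPM. Their part in the Col8a1 level was not tested. The call was lost in 5 of the 6 fits that left out a clone, with no filter on low counts (adjusted p = 0.0772), with the compared groups alone (0.105), with the replicate block (0.0749), and against the libraries labelled WT (-1.08, adjusted p = 0.341), while DESeq2 gave an adjusted p of 0.000915. Not one of 32 passed for Δ-C60 (beside 0% of all genes, with 5 members at an unadjusted p under 0.05 and 0 by DESeq2), for MT486 (0.287%, 6 and 2), for the libraries labelled WT (2.1%, 11 and 6) or for MT486 against MT194 (0.348%, 5 and 3). The median log2 fold changes of the 32 members were 0.04, -0.22, -0.80 and -0.64 in that order, and 0.26 for MT194. For the counts at an unadjusted p under 0.05 no share of all genes is given, so they have no background.

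For Δ-C60 the outcome depended on the wild-type group. Against the libraries labelled WT, 9 of 32 members were called, or 28.1%, beside 8.33% of all genes, all 9 higher in Δ-C60: Col11a1, Col12a1, Col20a1, Col27a1, Col4a1, Col4a2, Col4a3, Col5a1 and Col5a2. Those libraries include the 2 clones with low Nelfb, and they carry pLenti whereas Δ-C60 carries pBabe. Col4a1 was at 406, 261 and 578 CPM in Δ-C60, at 264, 96.3 and 242 CPM in WT(N48) and at 130, 67.9 and 163 CPM in the libraries labelled WT. Δ-C60 and WT(N48) overlapped, whereas Δ-C60 and the libraries labelled WT did not.

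Clones differed widely, both between groups and within them. Over all clones Col2a1 ranged from 4.10 CPM in Δ-C60 clone 3 to 1588 CPM in WT(N48) clone 1. Among WT(N48) clones it was at 1588, 728 and 421 CPM, and among Δ-C60 clones at 778, 174 and 4.10 CPM. In the populations its highest value was 33.0 CPM. Of the 7 cartilage markers, Sox9 was at 73.8 to 257 CPM in all clones and Acan at 0.0474 to 209 CPM, while Comp and Hapln1 stayed at 0.474 CPM or less. Matn3 had 6 to 75 reads, the most in Δ-C60 clone 3, Chad had 1 to 16 reads and Matn1 had 0 or 1. Over all clones, Col23a1 ranged from 0.197 to 330 CPM, Col15a1 from 0.207 to 176 CPM and Col14a1 from 0.0401 to 105 CPM. Within MT486, clones 1 and 2 had 0.434 and 0.591 CPM of Col15a1 and clone 3 had 47.5 CPM, and Col23a1 split them likewise, at 1.48, 2.02 and 96.0 CPM.

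Δ-C60 clone 3 held collagens that were near 0 elsewhere. Col4a3 and Col4a4, the paired chains of specialised basement membranes, were at 4.20 and 10.4 CPM there, against at most 0.674 and 0.152 CPM in the other 14 clones. Col19a1 had 99 reads in that clone, 1 in Δ-C60 clone 1, and 0 in the WT(N48) clones, and with 3 reads allowed over that group the mean of Δ-C60 was at least 37.4-fold higher. This rests on a single clone. The same clone had the highest Col12a1 (1693 CPM), Col4a1 (578 CPM) and Col8a1 (475 CPM), and also the highest Acta2, at 3852 CPM, and the lowest Pdgfra, at 5.48 CPM. Its Myh11, a smooth muscle marker, was at 2.62 CPM and its Kdr, an endothelial receptor, at 4.39 CPM, against at most 0.412 and 0.3997 CPM in the other 14 clones, while Pecam1 and Cdh5, also endothelial, were at 0.0494 and 0.296 CPM. The part of these genes in its collagen levels was not tested.

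**Figure D5:**
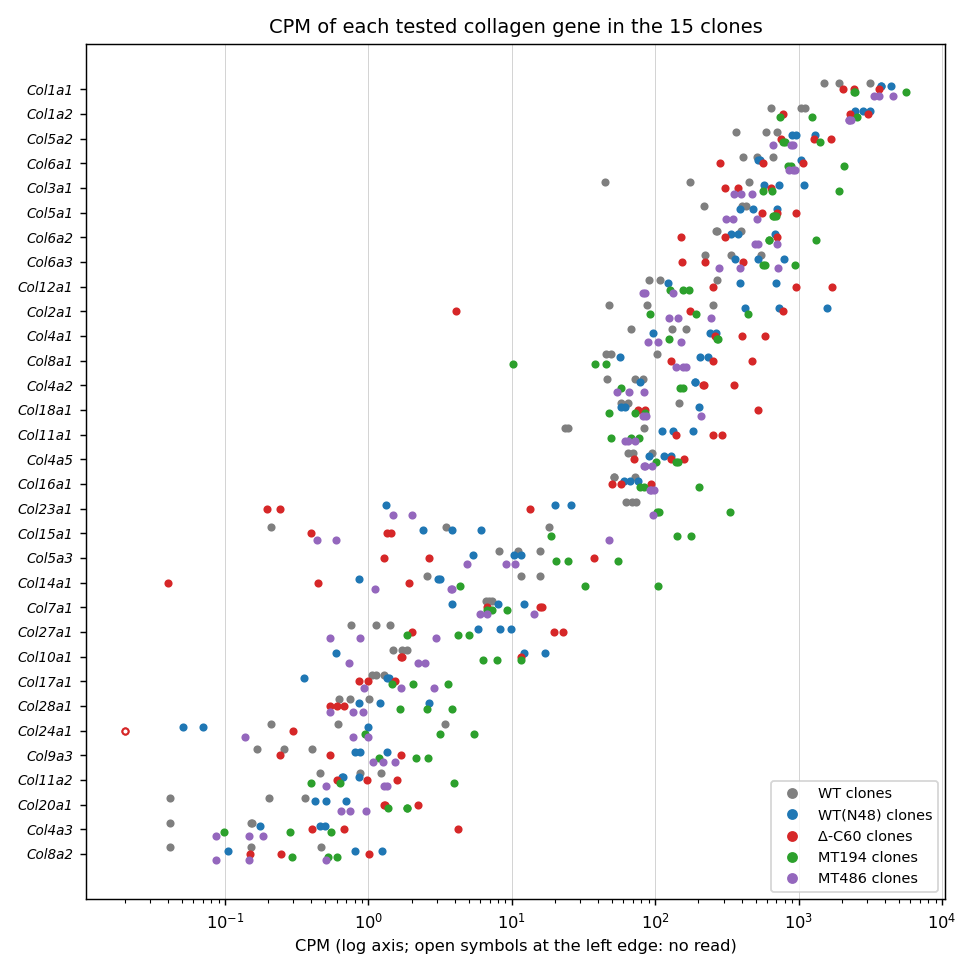
CPM on a log axis (x) of the 32 collagen genes tested in the clones (y), one point per clone, coloured by construct, with an open symbol at the left edge for no read. Col1a1 and Col1a2 stay within 1491 to 5619 and 638 to 3131 CPM, while Col2a1, Col14a1, Col15a1 and Col23a1 spread over wide ranges within single constructs.

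Some genes of collagen maturation and collagen receptors passed in the clones. For MT194 against WT(N48) 4 of 43 passed, or 9.30%, beside 5.82% of all genes: Adamts2, the main procollagen N-proteinase, at 65.2, 121 and 47.2 CPM against 1.42, 6.35 and 0.385 CPM (4.86, SE 0.89, adjusted p = 0.0140), Loxl2, a lysyl oxidase (-4.46), P3h2, a prolyl 3-hydroxylase (-1.75), and Plod1 (0.96). For the libraries labelled WT 3 passed, or 6.98%, beside 2.1% of all genes: Adamts2 (4.57), Itga11, a collagen-binding integrin chain (-4.40), and P3h2 (-2.16). Adamts2 was low in the WT(N48) clones, which both comparisons share and which carry pBabe. In the libraries labelled WT it was at 107, 33.4 and 50.7 CPM. Each pBabe clone, Δ-C60 included, lay below each pLenti clone, and the part of the vector was not tested. In the MT486 clones Adamts2 was at 43.5, 45.6 and 79.8 CPM and in Δ-C60 at 16.9, 7.60 and 26.9 CPM, and neither passed.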

How the data were processed

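RNA was sequenced from TruSeq stranded mRNA libraries of 20 populations and 15 clones. Per the labels and the study's methods, the authors aligned reads to mm10 with Bowtie 2, discarded those mapped with a quality under 30 and deposited HTSeq counts per gene, without normalization. The strand setting is not given in the sources used here. Groups came from the labels. Reads on no gene or on several were left out.

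Populations and clones were fitted apart, with edgeR 4.0.16 (R 4.3.3): TMM, filterByExpr (13805 and 13223 genes), robust quasi-likelihood, one mean per group. Benjamini-Hochberg adjustment took in all genes tested, and a call required a value under 0.05 after adjustment with a change of more than 0.5, up or down, on the log2 scale. The SE is the size of the change over the square root of F. CPM per kb used the longest RefSeq-matched transcript. The steps were tested on simulated data with 200 changed genes. Of changes of 1 on the log2 scale, the fit without the block recovered 45% in EV and 22% in MT194 clones against WT(N48). For changes of 2 these were 90% and 78%. The fit with the block, on data simulated apart with an experiment effect, recovered 91% and 97% in EV. Without the block, changes of 1 could thus often be missed, most in the clones.

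Replicate numbers pair the populations: how replicate 1 deviated from the mean correlated between groups at over 0.1 in 45 of 45 pairs (0.420 to 0.730), and the study describes 2 independent experiments. A fit blocked on that number is therefore printed beside the main one. Named genes were the most abundant members, up to 10 called per comparison of at least 1 CPM, partner chains, Nelfb and up to 4 called genes of the other lists. Members called with the block alone, Col6a5 and single clones were named after their values were seen. The members, lists and tests were chosen with earlier results of these data known. Alternatives were DESeq2 1.42.0, its size factors in edgeR, no filter, compared groups alone, a log2 fold change over 1, the block, each library left out, and the libraries labelled WT as comparator. Promoters were RefSeq windows of GRCm38.p6.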

Additional observations from a re-analysis of the deposited data

Results flagged for a closer look

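Blocking on the replicate number gave 13 results in which the Cre effect on a collagen gene differed from that in EV, each by a test of the difference itself. For WT these were Col11a1 (1.42), Col11a2 (-1.31), Col12a1 (-0.98), Col14a1 (1.30), Col20a1 (-1.90), Col6a2 (0.71), Col6a3 (0.59), Col6a5 (3.58, from low counts) and Col7a1 (-1.01), as differences of log2 fold changes. For MT194 it was Col11a1 (0.69), and for MT486 Col11a1 (1.17), Col14a1 (0.78) and Col6a3 (0.59). Adjusted p-values ran from 4.48e-06 for Col11a1 in WT to 0.0486 for Col14a1 in MT486. Each had the opposite sign to the change of the gene in EV. All of them use the same 4 EV libraries, and none passed without the block.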

How the results depend on the processing

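With 2 populations or 3 clones a group, each count of called collagens rested on few libraries, and where a value moved the cause was not tested. The replicate number as a block moved the count from 2 to 25 in EV, 0 to 2 in WT, 1 to 13 in MT194, 1 to 9 in MT486, 4 to 23 in DMT, and in the differences from EV from 0 to 9 (WT), 1 (MT194) and 3 (MT486). DESeq2 without the block called 8 in EV, 3 in MT194, 3 in MT486 and 7 in DMT, and in the clones 4 for MT194, 2 for MT486, 6 for WT and 3 for MT486 against MT194. DESeq2 with the block, added after seeing the data, called 24 in EV, 2 in WT, 13 in MT194, 9 in MT486 and 22 in DMT, and 13, 3, 5 and 2 in the differences of WT, MT194, MT486 and DMT from EV. Of all 13805 genes tested in the populations, DESeq2 without the block called 1997 in EV, 901 in MT194, 688 in MT486 and 1755 in DMT. Of 13223 in the clones it called 1744 for MT194, 584 for MT486, 1169 for WT and 800 for MT486 against MT194. With the block it called 3375 in EV, 540 in WT, 1916 in MT194, 1626 in MT486 and 3064 in DMT. In the differences from EV these were 1958, 263, 528 and 11, in the order above. Where DESeq2 called 0 members, no count of all genes is given. Whether the members exceed that background was not tested. The block without MT194-Cre replicate 2, also added, called 13 in MT194 (2 higher, 11 lower), with Col4a1, Col15a1 and Col17a1 lost and Col1a1, Col4a5 and Col16a1 gained. Where a group of 2 lost 1 library, the lone library was assumed to vary like the other groups.

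Compared groups alone gave 0 in MT194, 0 in MT486 and 2 in DMT, and in the clones 0 for MT194 and 2 for WT. Over all genes these fits called 0, 5, 489, 134 and 567 in that order. With no filter on low counts, and with the block, MT194 clones had 0. Against the libraries labelled WT there were 9 for Δ-C60 and 2 for MT194, or 28.1% and 6.25% of 32, beside 8.33% and 2.9% of all genes. Clone numbers share nothing in the labels (3 of 30 same-number correlations over 0.1), and the block called 0 in each clone comparison. Leaving out 1 library gave 2 to 4 in EV, 0 to 1 in MT194, 0 to 2 in MT486, 2 to 3 in DMT, 0 to 1 for MT194 clones and 0 to 1 for WT clones, and 0 in the other comparisons. The collagen share of the populations without Col1a1 was a median of 0.951%, and no mitochondrially encoded gene is listed in the counts. Over single genes, 1268 alternatives kept direction and side of the threshold, 22 lost the call, 221 gained it and 0 reversed.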
